A study of Mus musculus with 12 samples.

Results

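Interferon-stimulated genes (ISGs) were followed in the retina of mice given an antibody against PDGFRβ, with or without minocycline. The set held 43 genes of the 50559 in the count table, chosen by symbol. It contained 10 type I members (Ifit1, Ifit2, Ifit3, Ifit3b, Isg15, Oas1a, Oas2, Oas3, Oasl1 and Oasl2), 9 type II members (Gbp2 to Gbp7, Irgm1, Irgm2 and Irf1) and 24 other members that were placed in neither class. All mice were wild-type C57BL6/J and received 30 µg of antibody on day 1. This was a rat IgG isotype control in the groups IgG and IgG+Mino, and the rat anti-mouse PDGFRβ clone APB5 in the groups APB5 and APB5+Mino. It was injected under the skin and so was not restricted to the retina. The IgG+Mino and APB5+Mino mice also received minocycline intraperitoneally at 45 mg/kg daily from day 5 to day 27. Retinas were collected on day 28, with 3 RNA-Seq libraries per group.

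Interferons are cytokines that switch a cell into an antiviral state. Type I interferons signal through the IFNAR receptor to a complex with STAT2 and IRF9 that binds the interferon-stimulated response element (ISRE), whereas interferon gamma, the type II interferon, signals through IFNGR to the gamma-activated site (GAS) and induces IRF1. The classes overlap, since many promoters hold both elements and many genes answer to both kinds of interferon. In the retina, microglia, Müller glia and endothelial cells can all answer to interferon.

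Library totals ranged from 52740545 to 59411044 counts, and levels are given as CPM (counts scaled to a common library total with edgeR's TMM factors). APB5 replicate 3 stood apart from the other 11 libraries, with a score of 90.4 on the first principal component against −35.1 to 14. The antibody's target gene, Pdgfrb, was at 13.6, 12.8 and 20.1 CPM in IgG, 15.3, 18.6 and 14.7 CPM in IgG+Mino, 15.4, 16.3 and 38 CPM in APB5 and 15.1, 14.4 and 14.6 CPM in APB5+Mino. It did not pass the test in APB5 against IgG (log2 fold change 0.60 ± 0.38 (SE), adjusted P = 0.707 by the quasi-likelihood test of edgeR, Benjamini-Hochberg adjustment). Pericytes express this receptor, and the paper reports impaired pericyte coverage of retinal capillaries after APB5 at an earlier age. No APB5 library lay below the IgG range of Pdgfrb here. The reason was not tested, and Pdgfrb is a weak check of the labels. Xist, the RNA of the inactive X chromosome, was high in all 3 IgG libraries, in APB5 replicate 3 and in APB5+Mino replicate 3, and near 0 in the other 7. Sex and minocycline therefore cannot be told apart between IgG+Mino and IgG. Nothing in the labels beyond the replicate number says how libraries of a group relate, so the P values measure the spread between these libraries.

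Promoter sequences are shown first because the ISRE and the GAS are the textbook basis for the 2 kinds of response. RefSeq promoters (GRCm38.p6, from 250 bases before to 50 bases after each start site) were matched for 32 of the 43 members. Both strands were searched for the ISRE as GAAA, any 2 bases and GAAA, and for the GAS as TTC, any 3 bases and GAA. An ISRE was found for 20 of the 32 members (62.5%), against 3.99% of 27025 genes with a promoter in the same table. A GAS was found for 12 of 32 (37.5%), against 9.55% of those genes. The sequences did not separate the classes, as the ISRE was present in 6 of 9 type I members and in 6 of 7 type II members. The GAS was present in 2 of 9 type I and 4 of 7 type II members. A match describes letters in this window and not a bound site.

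The 150 bases before the start site are printed for 6 members, chosen to show each arrangement, 5′ to 3′ on the strand of the gene, with ISRE and GAS matches in capitals. Isg15 (chr4:156200819-156200968, minus strand) held 3 ISRE matches that overlapped each other in 1 run, and Bst2 (chr8:71537473-71537622, minus strand) held a GAS that overlapped the first of 2 ISRE matches. Ifit1 (chr19:34640739-34640888, plus strand) held 2 separate ISRE matches read on the opposite strand, and Gbp2 (chr3:142620513-142620662, plus strand) held 1. Irf1 (chr11:53769864-53770013, plus strand) held a GAS and no ISRE, and Irgm2 (chr11:58214827-58214976, plus strand) held a GAS followed by an ISRE.
Isg15: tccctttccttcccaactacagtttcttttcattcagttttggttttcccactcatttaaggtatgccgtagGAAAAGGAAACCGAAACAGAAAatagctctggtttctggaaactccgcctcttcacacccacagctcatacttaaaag
Bst2: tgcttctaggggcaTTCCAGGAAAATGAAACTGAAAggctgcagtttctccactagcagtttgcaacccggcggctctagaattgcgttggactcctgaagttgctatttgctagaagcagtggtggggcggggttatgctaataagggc
Ifit1: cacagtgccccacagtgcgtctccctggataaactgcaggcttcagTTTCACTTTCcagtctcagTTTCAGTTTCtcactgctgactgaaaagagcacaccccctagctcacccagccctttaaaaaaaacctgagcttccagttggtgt
Gbp2: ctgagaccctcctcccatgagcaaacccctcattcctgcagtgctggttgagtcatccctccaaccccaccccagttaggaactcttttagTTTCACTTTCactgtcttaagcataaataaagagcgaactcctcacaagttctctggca
Irf1: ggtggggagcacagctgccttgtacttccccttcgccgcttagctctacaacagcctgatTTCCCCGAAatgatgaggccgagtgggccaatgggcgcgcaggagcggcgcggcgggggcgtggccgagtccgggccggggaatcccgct
Irgm2: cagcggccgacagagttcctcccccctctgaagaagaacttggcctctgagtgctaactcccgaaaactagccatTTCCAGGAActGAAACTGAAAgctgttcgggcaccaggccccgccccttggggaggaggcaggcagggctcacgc
The fold changes of members with and without an element overlapped widely. In APB5+Mino against APB5, the median log2 fold change was −0.99 over the 20 members with an ISRE and −1.35 over the 12 without. It was −1.05 over the 12 members with a GAS and −1.01 over the 20 without, but −0.26 and −0.54 without APB5 replicate 3. In APB5+Mino against IgG+Mino the median was 0.02 over 19 members with an ISRE and −0.35 over 12 without. Both the Isg15 and the Irgm2 promoter held an ISRE, and their log2 fold changes in APB5+Mino against APB5 were −2.82 and −0.45.

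Members lay on 15 chromosomes, with several in tandem families. On GRCm39, Ifit2, Ifit3, Ifit3b and Ifit1 followed each other on chromosome 19 between 34527932 and 34632174, and Gbp5, Gbp7, Gbp3 and Gbp2 on chromosome 3 between 142199739 and 142343779. Neighbours in such families share sequence, so that reads of 50 bases can be split between them. Of the 50-base stretches in its transcripts, Gbp6 shared 61.6% with other genes, Ifit3b 48.0% (nearly all with Ifit3), Ifit3 31.7%, Rtp4 25.7%, Trim30a 17.4%, Oas1a 15.7% and Gbp7 11.5%. These shares were computed on GENCODE transcripts, whereas the counts used NCBI annotation. They mark members whose reads may be split, and the size of the effect on the counts was not measured. Irgm2 and Igtp overlap on the same strand of chromosome 11.

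Per length, the IgG retina held most RNA of Ifitm3 (7.26 CPM per kb of exon, mean of 3 libraries), Stat2 (6.15) and Ifit3 (4.70). The least was found for Mx1 (0.0310), Oas2 (0.0312) and Gbp4 (0.0389). Thus 32 members had a mean of at least 1 CPM over the 12 libraries. Mx1, an antiviral GTPase, was removed by the filter on low counts in every comparison. It was at 0.122, 0.070 and 0.121 CPM in IgG, 0.0362, 0.0531 and 0.278 CPM in IgG+Mino, 0.0723, 0.073 and 0.852 CPM in APB5 and 0.0537, 0.0979 and 0.113 CPM in APB5+Mino, where 3 counts correspond to 0.0448 to 0.0587 CPM. Oas2 was not tested in IgG+Mino against IgG, and Oas1a and Oas2 were not tested in APB5+Mino against IgG+Mino. A member that passed the filter through 1 high group only is not evidence for that group.

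**Figure D1:**
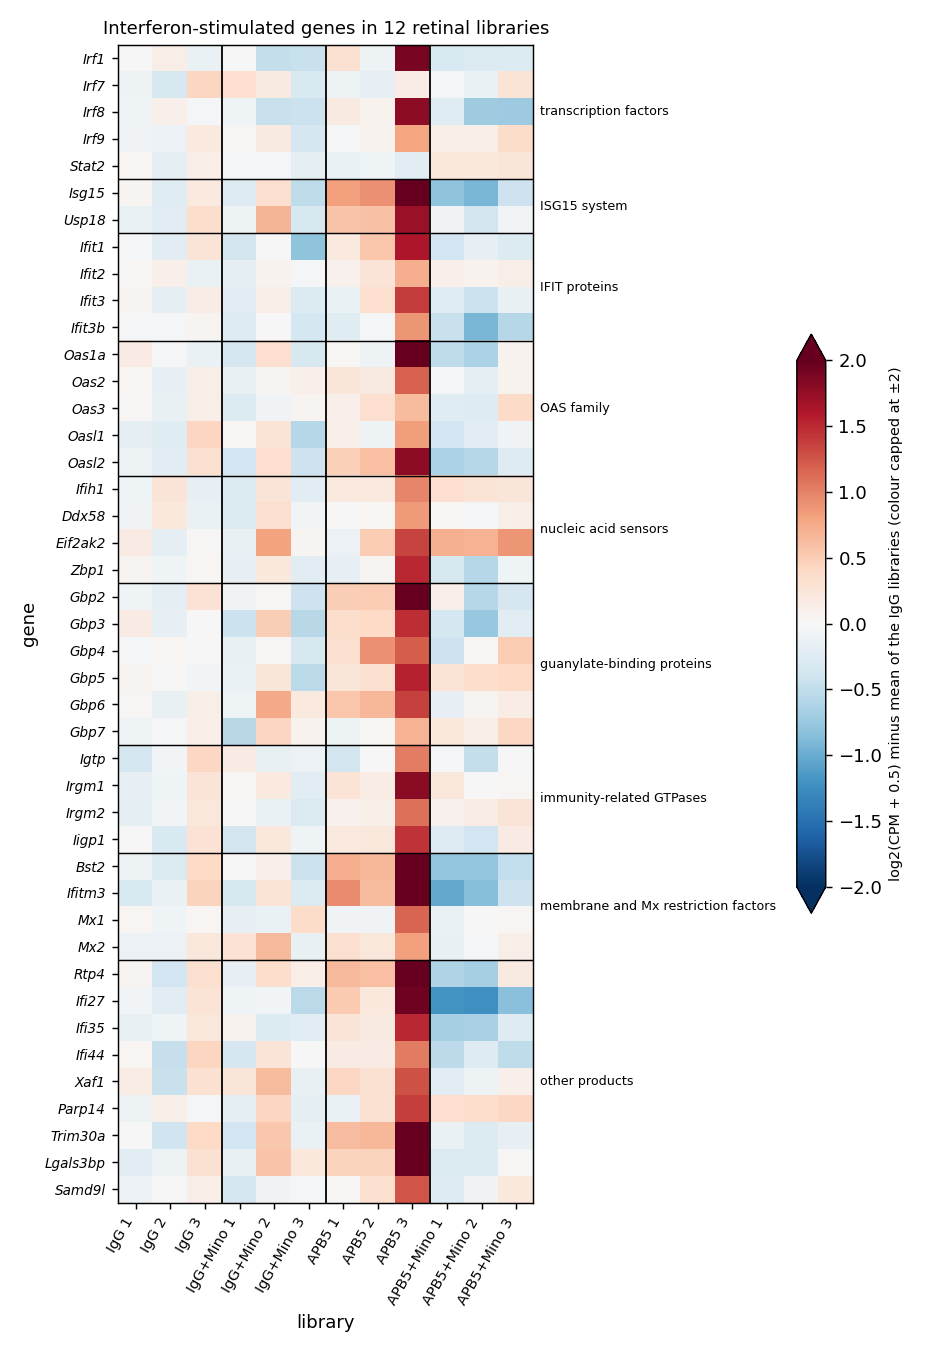
Level of each of the 43 members in each of the 12 libraries, as log2(CPM + 0.5) minus the mean of the 3 IgG libraries, with members in rows grouped by role and libraries in columns grouped by treatment. Colours are capped at ±2, and APB5 replicate 3 is the library with the highest level for 41 of the 43 members.

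The heat map of members by library was dominated by 1 library. APB5 replicate 3 was the highest of 12 for 41 of 43 members, against 24.6% of all genes, and exceeded the next library by more than 2 times for 25 of them. The 43 members summed to 587.6 CPM there and to 174.7 to 245.7 CPM in the other 11 libraries. Relative to the mean of APB5 replicates 1 and 2, the fold in APB5 replicate 3 had a median of 2.58 over members and ranged from 0.911 for Stat2 to 11.7 for Mx1. Markers of other cells were high in that library too. The 12 microglia and macrophage markers summed to 184 CPM, against 50.9 and 52.1 CPM in the other APB5 libraries, and the 11 neutrophil, T, B and NK cell markers to 8.52 CPM against 1.20 and 1.54 CPM. The B cell gene Ms4a1 and the cytotoxic cell gene Nkg7 had no count in the other 11 libraries and 40 and 7 counts in APB5 replicate 3. The part of these cells in the ISG levels was not tested, and in bulk tissue the number of cells of a type and the RNA per cell cannot be told apart. Results are therefore given with and without this library.

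Against IgG, APB5 retinas had higher values for most ISGs, but no member passed the test. The leading members were Isg15, the ubiquitin-like ISG15 modifier, the guanylate-binding proteins Gbp4 and Gbp6, Ifitm3, which blocks viral fusion, and Usp18, which removes ISG15 from proteins. Of 42 members tested, 40 had a positive log2 fold change, with a median of 0.96 over members and −0.00 over all 20350 genes tested. Genes were called where the quasi-likelihood test of edgeR gave a Benjamini-Hochberg adjusted P no higher than 0.05 and the log2 fold change reached 1 in either direction. Called members numbered 0, as did called genes among all tested (0%), and adjusted P values of members ranged from 0.664 to 0.952. At an unadjusted P of at most 0.05, 16 members were higher, against 5.22% of all genes. In 16 members all APB5 libraries lay above all IgG libraries, against 7.79% of all genes. DESeq2 called 1 member, Isg15 (adjusted P = 0.0228), against 0.322% of all genes, and limma's voom called 0, against 0.133%. Here and below, DESeq2 shares are over all genes with a count (33260 here), and voom shares over filtered genes (20350 here). The DESeq2 shares thus include genes with few counts and are not on the same base.

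Once APB5 replicate 3 was left out, the median log2 fold change of the members in APB5 against IgG was 0.25, with 34 positive and 8 negative. Again 0 members were called, against 0.101% of all genes, and 10 were higher at an unadjusted P of at most 0.05, against 3.22%. The same 16 members as before had every remaining APB5 library above every IgG library, against 11.7% of all genes. Leaving out a library cannot undo such a separation, so this count could not fall and is no further support. They were Isg15, Usp18, Oas2, Oasl2, Gbp2 to Gbp6, Bst2, Ifitm3, Mx2, Rtp4, Trim30a, Xaf1 and Lgals3bp. All APB5 libraries left were then low in Xist and all IgG libraries high, so antibody and sex cannot be told apart in that fit. When the log2 level of Xist was added to a fit of the 12 libraries, 24 members were called higher, against 4.71% of all genes called, and in that fit APB5 replicate 3 was the only APB5 library high in Xist.

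Minocycline retinas of the APB5 groups had lower ISG values than APB5 retinas, and 2 members were called lower in the unpaired test. These were Isg15 and Ifi27, the latter an interferon-inducible membrane protein of mitochondria and the nuclear envelope. Of 42 members tested, 39 had a negative log2 fold change, with a median of −1.32 over members and −0.02 over all 20281 genes. The 2 called members compared with 0.819% of all genes called lower. At an unadjusted P of at most 0.05, 26 members were lower, against 19.2% of all genes, and 1, Stat2, was higher. In 23 members every APB5+Mino library lay below every APB5 library, against 22.8% of all genes. This comparison shares the APB5 libraries with that of APB5 against IgG, so the 2 sets of differences are not independent. The number of calls depended on the fit. The labels do not say that equal replicate numbers mark pairs, and in both groups replicate 3 alone was high in Xist. With the numbers taken as pairs and fitted as a block, no member was called (adjusted P = 0.0641 for both Isg15 and Ifi27 by the same test). Scaling by library size alone and leaving out APB5 replicate 1 or any APB5+Mino library also left 0, whereas DESeq2 called 17, against 4.98% of all genes, voom 11, against 7.07%, and the fit with Xist as a covariate 21, against 8.28%.

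Leaving out APB5 replicate 3 gave a median of −0.62 in APB5+Mino against APB5, and 9 members were called lower, against 2.6% of all genes. They were Bst2, Ifi27, Ifi44, Ifitm3, Isg15, Oasl2, Rtp4, Trim30a and Usp18, of which 2 are of type I and none of type II. Again 23 members had all APB5+Mino libraries below the remaining APB5 libraries, against 28% of all genes. This count, too, could not fall when a library was left out.

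In control mice no member passed the test between IgG+Mino and IgG. The median log2 fold change was −0.11 over 41 members and −0.01 over 20143 genes, and called members numbered 0, against 0.0298% of all genes. At an unadjusted P of at most 0.05 there were also 0 members, against 8.37% of all genes, and DESeq2 and voom called 0, against 0.0612% and 0.616%. Groups were separate in 1 member only, Irf8, a transcription factor of myeloid cells, which was lower in IgG+Mino, against 7.35% of all genes. With Xist as a covariate the median was 0.71 over 42 members, 41 of them positive, and −0.01 over all genes. In that fit 0 members and 0% of all genes were called. That fit cannot separate sex from minocycline here, because Xist was high in all IgG and near 0 in all IgG+Mino libraries. Its slope on Xist rests mainly on the APB5 and APB5+Mino groups, where APB5 replicate 3 was the only APB5 library high in Xist. The interaction asks whether the difference between APB5 and IgG depended on minocycline. Its median was −1.13 over 42 members, 40 of them negative, and called members numbered 0, against 0.0141% of all genes (lowest adjusted P = 0.135, for Isg15). At an unadjusted P of at most 0.05, 16 members were negative, against 9.08% of all genes, and DESeq2 called 6, against 1.07% of all genes, voom 10, against 4.93%, and the fit with Xist as a covariate 11, against 3.04%. The median was −0.54 without APB5 replicate 3, with 0 called against 0.32% of all genes and 11 negative at an unadjusted P of at most 0.05 against 7.77%.

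Under minocycline no member was called between APB5 and IgG antibody, and the members that lay apart were about as frequent as among all genes, or less so. The median log2 fold change was −0.18 over 40 members and −0.01 over 20049 genes, and called members numbered 0, against 1.24% of all genes. Ifi27 had an adjusted P of 0.0285 and a log2 fold change of −0.97, just under the fold threshold. At an unadjusted P of at most 0.05, 7 members were lower, against 14.6% of all genes, and 1, Stat2, was higher. DESeq2 called 0, against 0.891% of all genes, and voom 1, Ifi44, against 2.93%. All APB5+Mino libraries lay above all IgG+Mino libraries for Gbp5, Ifit2, Irgm2 and Stat2, against 17.7% of all genes. They lay below them for Bst2, Ifi27, Ifit3b and Ifitm3, against 17.6% of all genes.

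**Figure D2:**
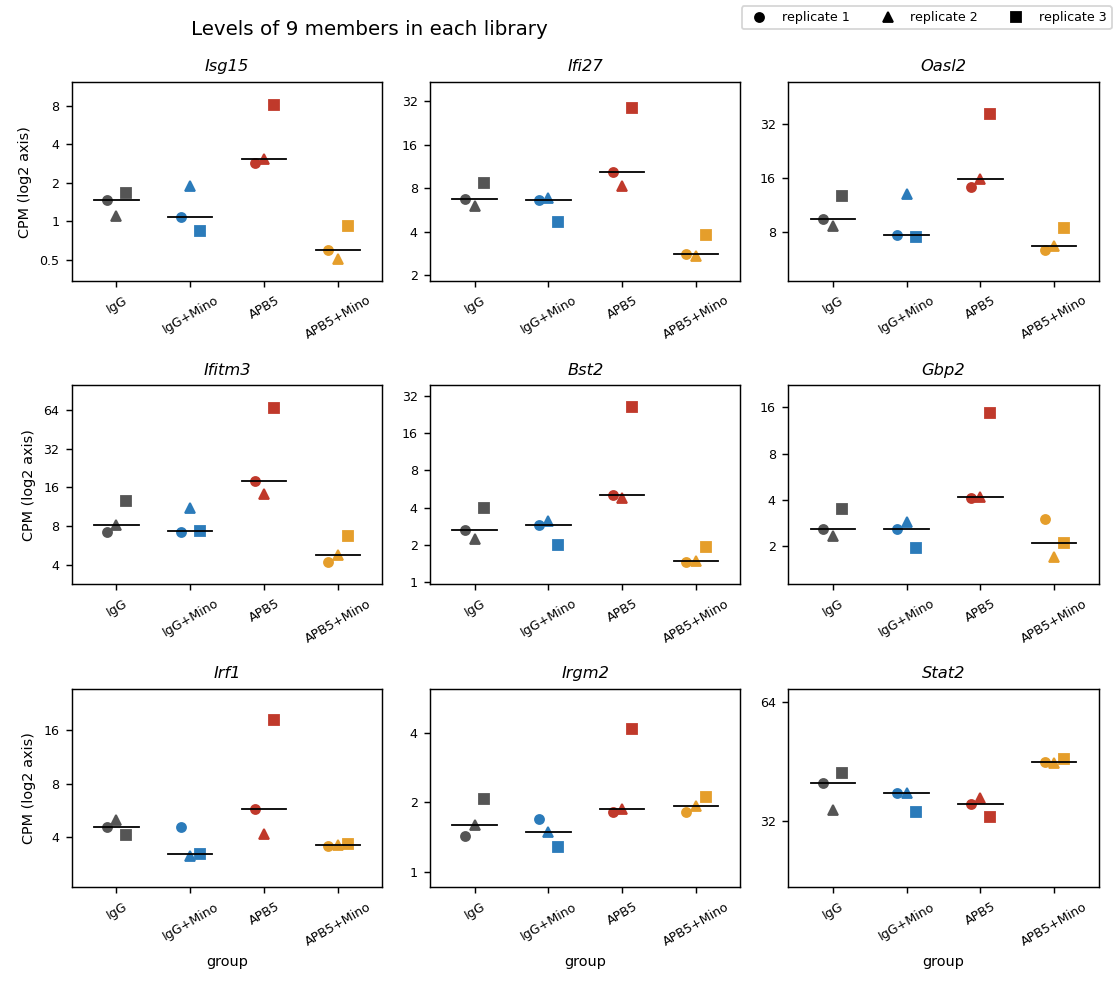
CPM on a log2 axis of 9 members in each library, with a point per library, its shape for the replicate number and a line at the median of each group. Isg15, Ifi27, Ifitm3 and Bst2 in APB5+Mino lie below all APB5 libraries, while Irgm2 and Stat2 do not.

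Isg15 and Usp18 form the ISG15 system, in which USP18 also dampens signalling from IFNAR. Isg15 (chromosome 4, 156283883 to 156285303 on GRCm39) had 1.47, 1.1 and 1.68 CPM in IgG, 1.09, 1.88 and 0.835 CPM in IgG+Mino, 2.86, 3.08 and 8.11 CPM in APB5 and 0.591, 0.509 and 0.921 CPM in APB5+Mino. The APB5 libraries were the 3 highest of 12 and the APB5+Mino libraries included the 2 lowest. Its log2 fold change was 1.75 ± 0.46 (SE) in APB5 against IgG (adjusted P = 0.664) and −2.82 ± 0.51 (SE) in APB5+Mino against APB5 (adjusted P = 0.0461). These were 1.07 without APB5 replicate 3 (adjusted P = 0.459) and −2.14 (adjusted P = 0.00229). All adjusted P values from here on come from the same edgeR quasi-likelihood fits, adjusted by Benjamini-Hochberg. Usp18 had 0.665, 0.595 and 1.12 CPM in IgG, 0.688, 1.54 and 0.52 CPM in IgG+Mino, 1.39, 1.41 and 3.72 CPM in APB5 and 0.716, 0.489 and 0.733 CPM in APB5+Mino. The APB5 libraries did not overlap those of IgG or APB5+Mino, but IgG+Mino replicate 2 stood above APB5 replicates 1 and 2. The log2 fold change of Usp18 was 1.47 in APB5 against IgG (adjusted P = 0.664) and −1.77 in APB5+Mino against APB5 (adjusted P = 0.0597), and 0.82 and −1.11 without APB5 replicate 3.

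The IFIT proteins bind viral RNA that lacks the host cap modification. Ifit1 had 3.06, 2.61 and 3.87 CPM in IgG, 2.32, 3.15 and 1.6 CPM in IgG+Mino, 3.65, 4.87 and 10.7 CPM in APB5 and 2.31, 2.74 and 2.52 CPM in APB5+Mino. Apart from APB5 replicate 3, the groups IgG and APB5 overlapped. Ifit2 had 10.5, 11.1 and 9.34 CPM in IgG, 8.94, 10.8 and 10.1 CPM in IgG+Mino, 10.9, 12.3 and 17.4 CPM in APB5 and 11.1, 10.9 and 11.4 CPM in APB5+Mino. Ifit2 was thus the most even of the family, at 8.94 to 12.3 CPM in 11 libraries. Ifit3 had 13.9, 11.6 and 15 CPM in IgG, 11.5, 14.8 and 11 CPM in IgG+Mino, 12.2, 17 and 36.3 CPM in APB5 and 11.3, 9.88 and 12.1 CPM in APB5+Mino. Its paralog Ifit3b, whose reads cannot all be told from those of Ifit3, had 7.36, 7.32 and 7.84 CPM in IgG, 6.23, 7.45 and 5.77 CPM in IgG+Mino, 6.27, 7.3 and 14.2 CPM in APB5 and 5.35, 3.76 and 4.87 CPM in APB5+Mino. For both genes APB5 replicate 1 lay among or below the IgG libraries, and all APB5+Mino libraries lay below all APB5 libraries. In APB5 against IgG the median of the family was a log2 fold change of 0.56 with all libraries and 0.14 without APB5 replicate 3. For APB5+Mino against APB5 the values were −1.37 for Ifit1, −0.30 for Ifit2, −1.0 for Ifit3 and −1.01 for Ifit3b (adjusted P = 0.0724, 0.298, 0.12 and 0.0901). They were −0.76, −0.07, −0.40 and −0.55 without APB5 replicate 3.

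Oligoadenylate synthetases make the second messenger that activates RNase L. Oasl2, a ubiquitin-like relative, was the only member of the family above 1 CPM on average, with 9.51, 8.72 and 12.8 CPM in IgG, 7.71, 13.1 and 7.52 CPM in IgG+Mino, 14.4, 15.8 and 36.3 CPM in APB5 and 6.41, 6.69 and 8.42 CPM in APB5+Mino. APB5 libraries were again the 3 highest of 12, and IgG+Mino replicate 2 came close behind. Its log2 fold change was 1.12 ± 0.38 (SE) in APB5 against IgG (adjusted P = 0.664, and 0.55 without APB5 replicate 3) and −1.65 ± 0.38 (SE) in APB5+Mino against APB5, which just missed the threshold (adjusted P = 0.0517). It passed without APB5 replicate 3 (−1.08, adjusted P = 0.00238). Oas1a, Oas2, Oas3 and Oasl1 were at 0.0391 to 1.08 CPM in all libraries but for Oas1a in APB5 replicate 3, at 3.27 CPM. The 5 genes had a median of −1.65 in APB5+Mino against APB5, with all 5 negative, and of −0.87 without APB5 replicate 3.

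The guanylate-binding proteins are GTPases that attack vacuoles of intracellular pathogens, and interferon gamma is their classical inducer. Gbp2 had 2.59, 2.35 and 3.49 CPM in IgG, 2.61, 2.87 and 1.97 CPM in IgG+Mino, 4.1, 4.16 and 14.8 CPM in APB5 and 3.01, 1.7 and 2.11 CPM in APB5+Mino. Gbp3 had 4.04, 3.12 and 3.52 CPM in IgG, 2.52, 5.21 and 2.25 CPM in IgG+Mino, 4.68, 4.84 and 10.7 CPM in APB5 and 2.67, 1.9 and 2.99 CPM in APB5+Mino. In both, the APB5 libraries lay above the IgG and the APB5+Mino libraries without overlap. Gbp4 had 0.35, 0.403 and 0.38 CPM in IgG, 0.29, 0.39 and 0.204 CPM in IgG+Mino, 0.597, 1.15 and 1.52 CPM in APB5 and 0.161, 0.391 and 0.752 CPM in APB5+Mino. APB5 did not overlap IgG, while APB5+Mino replicate 3 lay between APB5 replicates 1 and 2. Gbp5 had 0.787, 0.735 and 0.691 CPM in IgG, 0.634, 0.956 and 0.353 CPM in IgG+Mino, 0.958, 1.04 and 3.11 CPM in APB5 and 1.0, 1.08 and 1.13 CPM in APB5+Mino. The APB5+Mino libraries of Gbp5 lay at the level of APB5 replicates 1 and 2 and above all IgG and IgG+Mino libraries. Gbp6 shares the larger part of its sequence with a GENCODE gene model that overlaps it on the same strand. It had 5.86, 5.13 and 6.23 CPM in IgG, 5.39, 9.97 and 6.63 CPM in IgG+Mino, 8.62, 9.38 and 15.6 CPM in APB5 and 5.03, 5.93 and 6.41 CPM in APB5+Mino. Gbp7 had 2.62, 2.71 and 3.13 CPM in IgG, 1.76, 3.95 and 2.97 CPM in IgG+Mino, 2.58, 2.87 and 4.86 CPM in APB5 and 3.35, 3.15 and 3.93 CPM in APB5+Mino. In Gbp6 the APB5+Mino libraries lay at the IgG level, and in Gbp7 they overlapped those of APB5.

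The log2 fold changes of these 6 genes in APB5 against IgG had a median of 1.10, from 0.30 for Gbp7 to 1.54 for Gbp4 (adjusted P = 0.664 for Gbp4, the second smallest P among members). The median was 0.50 without APB5 replicate 3, and Gbp4 (1.21) and Gbp6 (0.65) had the largest values of the family. For APB5+Mino against APB5 the median was −1.16, and −0.75 without APB5 replicate 3. Gbp2 (−1.78, adjusted P = 0.0792), Gbp3 (−1.44, adjusted P = 0.0606) and Gbp6 (−0.97, adjusted P = 0.0608) had groups that did not overlap, and were at −0.86, −0.92 and −0.64 without APB5 replicate 3. Gbp5 had −0.70 (adjusted P = 0.334) and Gbp7 −0.00 (adjusted P = 0.996), and without APB5 replicate 3 both were above 0, at 0.09 and 0.35.

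The immunity-related GTPases Irgm1 and Irgm2 regulate the same defence of vacuoles, and IRF1 is the transcription factor that interferon gamma induces first. Irgm1 had 3.44, 3.66 and 4.8 CPM in IgG, 4.02, 4.55 and 3.27 CPM in IgG+Mino, 4.88, 4.44 and 15.1 CPM in APB5 and 4.71, 3.91 and 3.99 CPM in APB5+Mino. Irgm2 had 1.43, 1.59 and 2.06 CPM in IgG, 1.68, 1.49 and 1.28 CPM in IgG+Mino, 1.81, 1.86 and 4.15 CPM in APB5 and 1.81, 1.92 and 2.11 CPM in APB5+Mino. For both, APB5 replicate 3 was far above the other 11 libraries, and at least 1 of APB5 replicates 1 and 2 lay within the IgG range. Irf1 (chromosome 11, 53660812 to 53669200 on GRCm39) had 4.55, 5.02 and 4.13 CPM in IgG, 4.56, 3.13 and 3.21 CPM in IgG+Mino, 5.75, 4.2 and 18.4 CPM in APB5 and 3.6, 3.62 and 3.69 CPM in APB5+Mino. The APB5+Mino libraries of Irf1 were below all APB5 libraries and below all IgG libraries. In APB5+Mino against APB5 the log2 fold change was −0.98 for Irgm1, −0.45 for Irgm2 and −1.40 for Irf1 (adjusted P = 0.191, 0.406 and 0.118). Without APB5 replicate 3 these were −0.15, 0.08 and −0.46. The other 2 GTPases of this family, Igtp and Iigp1, ranged from 2.82 to 8.90 CPM and from 0.137 to 1.76 CPM.

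**Figure D3:**
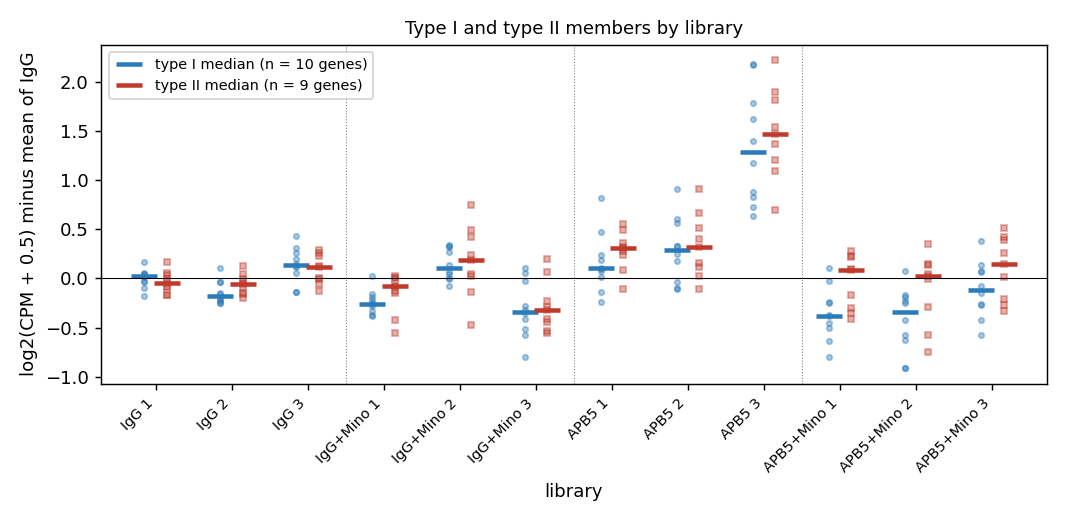
Type I and type II members in each of the 12 libraries, as log2(CPM + 0.5) minus the mean of the 3 IgG libraries. Each point is a gene, and a dash marks the median of its class. Both medians are highest in APB5 replicate 3 (1.29 and 1.48), and the type II median lies above the type I median by 0.26 to 0.46 in the APB5+Mino libraries.

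The medians of type I and type II members lay further apart in the APB5+Mino libraries than in the other 9. In the plot of class medians by library, the type II median minus the type I median was −0.07, 0.12 and −0.03 in the IgG libraries. It was 0.18, 0.09 and 0.02 in IgG+Mino, and 0.20, 0.03 and 0.19 in APB5. In APB5+Mino it was 0.46, 0.36 and 0.26, above each of the other 9 libraries. The type I medians there were −0.38, −0.34 and −0.11 and the type II medians 0.08, 0.02 and 0.15, relative to the IgG mean. Single members did not all follow the median of their class, as the type II members Gbp3 and Irf1 lay below every IgG library in all APB5+Mino libraries. The type I members Ifit3b, Isg15 and Oasl2 did so as well. The 10 type I members summed to 35.0 to 41.6 CPM in APB5+Mino and 43.4 to 52.0 CPM in IgG, which did not overlap, and the 9 type II members to 23.6 to 27.1 CPM and 24.7 to 28.4 CPM, which did. These groups differ in both antibody and minocycline. In IgG+Mino the sums were 37.7 to 52.8 CPM for type I and 22.1 to 32.5 CPM for type II, and both overlapped those of APB5+Mino.

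As fold changes, the type I median was 0.93 and the type II median 1.06 in APB5 against IgG, a difference of 0.13. The medians were 0.30 and 0.42 without APB5 replicate 3. This difference changed sign when IgG replicate 3 was left out (−0.18) and under voom (−0.10). The medians were −1.33 and −0.98 in APB5+Mino against APB5, and −0.68 and −0.46 without APB5 replicate 3. The difference of 0.35 with all libraries was 0.080 under voom. All 10 type I members were negative in both fits, while 3 of 9 type II members, Gbp5, Gbp7 and Irgm2, were above 0 without that library. In APB5+Mino against IgG+Mino the medians were −0.28 over 8 type I and 0.09 over 9 type II members, a difference of 0.37 that was 0.13 under voom. In IgG+Mino against IgG they were −0.20 and −0.18. These differences are descriptions of members chosen with results known and were not tested, and Gbp6, Gbp7, Ifit3 and Ifit3b may share reads with other genes.

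**Figure D4:**
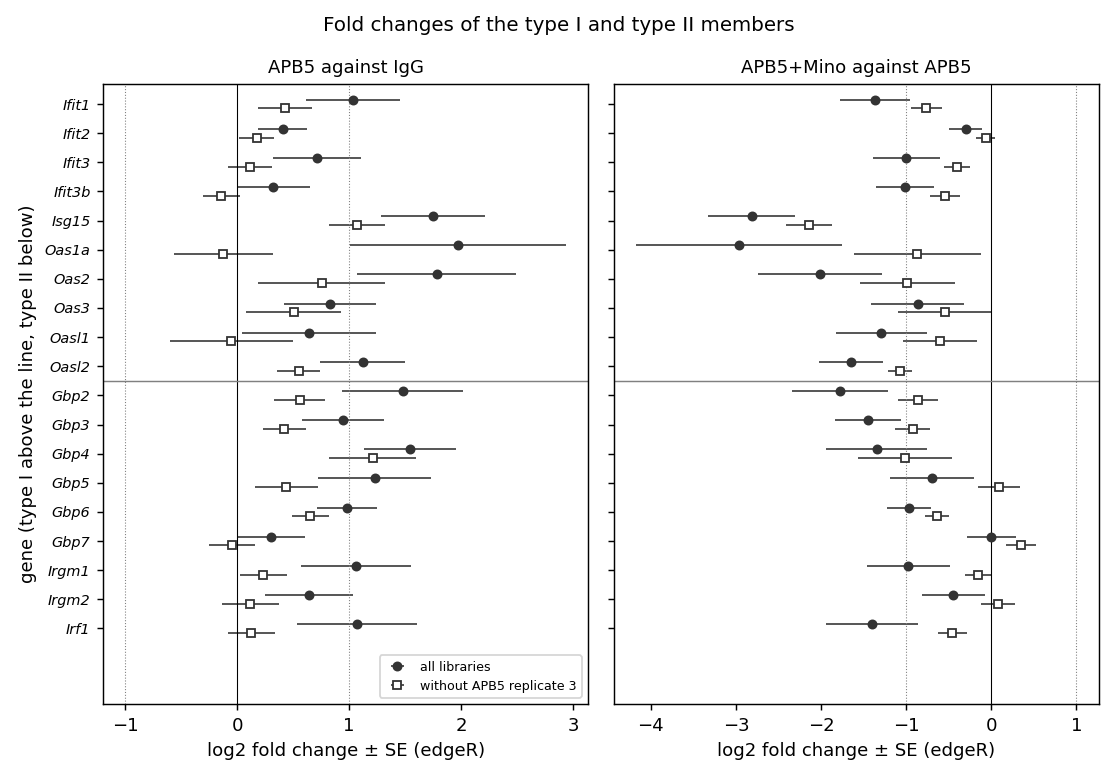
Log2 fold change ± SE of each type I member (above the line) and type II member (below it) in APB5 against IgG and in APB5+Mino against APB5, with all libraries (filled) and without APB5 replicate 3 (open). All 10 type I members lie below 0 in APB5+Mino against APB5 in both fits, and Gbp5, Gbp7 and Irgm2 lie above 0 without APB5 replicate 3.

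Of the transcription factors, Stat2, Irf7 and Irf9 differed little between groups, whereas Irf8 followed the other members. Stat2, a subunit of the complex that binds the ISRE, had 39.9, 34.2 and 42.3 CPM in IgG, 37.8, 37.7 and 33.8 CPM in IgG+Mino, 35.4, 36.6 and 32.8 CPM in APB5 and 45.2, 44.7 and 46 CPM in APB5+Mino. Unlike most members, it had the APB5+Mino libraries as the 3 highest of 12. Its log2 fold change was 0.36 ± 0.09 (SE) in APB5+Mino against APB5 (adjusted P = 0.0532) and 0.32 ± 0.09 (SE) in APB5+Mino against IgG+Mino (adjusted P = 0.0554). Irf9, which completes that complex, ranged from 9.76 to 16.2 CPM in 11 libraries and was at 21.9 CPM in APB5 replicate 3. Irf7, which amplifies type I interferon production, ranged from 9.10 to 15.6 CPM with APB5 replicate 3 within the range. Their log2 fold changes in APB5 against IgG were 0.34 and −0.06, and 0.01 and −0.18 without APB5 replicate 3. Irf8 had 1.96, 2.31 and 2.07 CPM in IgG, 1.95, 1.42 and 1.45 CPM in IgG+Mino, 2.44, 2.25 and 8.49 CPM in APB5 and 1.72, 1.1 and 1.07 CPM in APB5+Mino. It was lower in every IgG+Mino than in every IgG library (log2 fold change −0.40, adjusted P = 0.625), and lower in every APB5+Mino than in every APB5 library (−1.78, adjusted P = 0.0812, and −0.86 without APB5 replicate 3). Irf8 is expressed by microglia, and the 12 microglia and macrophage markers summed to 45.5 to 69.7 CPM in IgG, 32.4 to 41.1 CPM in IgG+Mino and 21.6 to 24.2 CPM in APB5+Mino. Their part in the Irf8 level was not tested.

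Among the restriction factors, Bst2 and Ifitm3 were high in APB5 and low in APB5+Mino. Bst2, or tetherin, holds budding virions at the cell surface (chromosome 8, 71986895 to 71990114 on GRCm39). Bst2 had 2.66, 2.26 and 3.95 CPM in IgG, 2.9, 3.15 and 2.02 CPM in IgG+Mino, 5.08, 4.84 and 25.8 CPM in APB5 and 1.45, 1.49 and 1.92 CPM in APB5+Mino. Ifitm3 (chromosome 7, 140589499 to 140591282) had 7.22, 8.21 and 12.5 CPM in IgG, 7.15, 11.1 and 7.33 CPM in IgG+Mino, 17.9, 14.3 and 66.5 CPM in APB5 and 4.22, 4.8 and 6.66 CPM in APB5+Mino. In both genes all APB5 libraries lay above all IgG libraries, and all APB5+Mino libraries lay below all IgG+Mino and all IgG libraries. The log2 fold change of Bst2 was 2.04 ± 0.69 (SE) in APB5 against IgG (adjusted P = 0.664) and −2.91 ± 0.71 (SE) in APB5+Mino against APB5 (adjusted P = 0.0547). That of Ifitm3 was 1.85 ± 0.60 (SE) (adjusted P = 0.664) and −2.68 ± 0.62 (SE) (adjusted P = 0.0518). In APB5 against IgG they were 0.75 and 0.79 without APB5 replicate 3. Without that library both fell in APB5+Mino against APB5 (log2 fold changes −1.62 and −1.63, adjusted P = 0.00155 and 0.00163). Mx2, the GTPase paralog of Mx1, ranged from 0.501 to 1.45 CPM.

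Ifi27 (chromosome 12, 103392254 to 103407799 on GRCm39) had 6.77, 6.0 and 8.67 CPM in IgG, 6.66, 6.82 and 4.7 CPM in IgG+Mino, 10.3, 8.31 and 28.8 CPM in APB5 and 2.79, 2.72 and 3.76 CPM in APB5+Mino. The APB5+Mino libraries were the 3 lowest of 12. Its log2 fold change was 1.17 ± 0.47 (SE) in APB5 against IgG (adjusted P = 0.664) and 0.39 without APB5 replicate 3, where APB5 replicate 2 lay below IgG replicate 3. It was −2.38 ± 0.50 (SE) in APB5+Mino against APB5 (adjusted P = 0.0491) and −1.60 without APB5 replicate 3 (adjusted P = 0.00145). Annotation places the gene Ifi27l2a on the opposite strand over part of Ifi27, and whether counting used the strand is not given in the sources used here. The other 8 products of this group (Rtp4, Ifi35, Ifi44, Xaf1, Parp14, Trim30a, Lgals3bp and Samd9l) had negative log2 fold changes in APB5+Mino against APB5, from −2.24 for Trim30a to −0.35 for Parp14. Without APB5 replicate 3 they were −1.38 and 0.28, the latter of opposite sign. In 6 of these 8, all but Parp14 and Samd9l, the groups did not overlap.

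Of the 4 sensors of viral nucleic acid, 3 had log2 fold changes close to 0 in APB5+Mino against APB5. Ifih1 and Ddx58, which detect double-stranded RNA, had log2 fold changes of −0.26 and −0.36, and Eif2ak2, a kinase that halts translation, had 0.04 (adjusted P = 0.519, 0.377 and 0.951). The signs of Ifih1 and Ddx58 turned without APB5 replicate 3, to 0.10 and 0.01. Zbp1, a sensor of Z-form nucleic acid, had −2.10 (adjusted P = 0.13, and −0.70 without APB5 replicate 3) at 0.0979 to 0.531 CPM outside APB5 replicate 3. Levels of Eif2ak2 were 4.97 to 5.73 CPM in APB5+Mino against 2.62, 4.34 and 8.16 CPM in APB5, the last of these the highest of 12.

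Interferon mRNA was almost absent at day 28. Of 21 interferon genes in the table, 15 had no count in any library, the largest count in a library was 3, and all 12 libraries held 26 counts together. None passed the filter on low counts, and production before day 28 was not measured. The 6 receptor genes were expressed, and 0 of them were called in any comparison. Ifnar1 had 35.4, 39.1 and 52.9 CPM in IgG, 49, 54.8 and 49.9 CPM in IgG+Mino, 48.7, 41.5 and 44.1 CPM in APB5 and 57.8, 61.2 and 56 CPM in APB5+Mino. Ifnar2 had 6.85, 7.4 and 8.19 CPM in IgG, 9.07, 7.1 and 7.52 CPM in IgG+Mino, 8.44, 7.14 and 20.3 CPM in APB5 and 7.71, 6.73 and 7.18 CPM in APB5+Mino. Both chains of the type I receptor were thus present in all libraries, with APB5 replicate 3 highest for Ifnar2 only. Ifngr1 had 23.9, 26.3 and 32.2 CPM in IgG, 34.5, 31.2 and 33.6 CPM in IgG+Mino, 34.8, 28.9 and 30.9 CPM in APB5 and 30.3, 27.3 and 27.5 CPM in APB5+Mino. Ifngr2 had 16.2, 18.3 and 22.7 CPM in IgG, 21.7, 20.6 and 22.9 CPM in IgG+Mino, 23.2, 19.2 and 38.4 CPM in APB5 and 23.2, 18.6 and 18.8 CPM in APB5+Mino. The type II receptor chains showed the same picture, with APB5 replicate 3 highest for Ifngr2. Ifnlr1 and Il10rb, the chains of the lambda interferon receptor, were at 0.159 to 0.450 CPM and 2.32 to 4.72 CPM in 11 libraries and at 1.73 and 11.9 CPM in APB5 replicate 3.

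Of the other upstream genes, 0 of 13 genes of nucleic acid sensing (10 to 12 of them tested) and 0 of 6 negative regulators were called in any comparison with all libraries. Their median log2 fold changes in APB5+Mino against APB5 were −0.68 and −1.03, and −0.23 and −0.59 without APB5 replicate 3. Socs3, an inhibitor of JAK kinases that also answers to other cytokines, had 4.48, 5.32 and 8.1 CPM in IgG, 5.63, 6.92 and 5.51 CPM in IgG+Mino, 26.3, 10.3 and 154 CPM in APB5 and 5.69, 6.71 and 5.53 CPM in APB5+Mino. Without APB5 replicate 3, Socs3 fell in APB5+Mino against APB5 (log2 fold change −1.62, adjusted P = 0.00861), as did Ptpn6, a phosphatase of blood-derived cells (−1.09, adjusted P = 0.0338).

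Markers of microglia and macrophages, of endothelial cells and of Müller glia were lower, as were most ISGs, in APB5+Mino against APB5. In that comparison the 12 microglia and macrophage markers gave a median log2 fold change of −2.32, with Cx3cr1 and Fcrls called lower, and a median of −1.38 without APB5 replicate 3. In APB5 against IgG the marker median was 0.86 with all libraries and −0.15 without APB5 replicate 3, where the ISG median was 0.25. None of the 12 markers was at 0 in any group. The 8 endothelial markers summed to 180 to 208 CPM in APB5+Mino and 258 to 302 CPM in APB5, and the 8 Müller glia markers to 3881 to 4116 CPM and 4682 to 6502 CPM. In APB5+Mino against APB5 all 8 endothelial markers were negative (median −0.76, 2 called lower), as were all 8 Müller glia markers (median −0.44, 0 called). The medians were −0.66 and −0.27 without APB5 replicate 3. Sums hide single markers, as in APB5 replicate 3 Clu was the highest of 12 and Glul the lowest. The 11 neutrophil, T, B and NK cell markers summed to 1.29 to 2.05 CPM in APB5+Mino, 1.45 to 1.92 CPM in IgG and 1.15 to 1.40 CPM in IgG+Mino. Of these 11, 5 were at 0 in all APB5+Mino libraries, 3 in all IgG and 3 in all IgG+Mino libraries, and only 3 passed the filter on low counts in APB5+Mino against APB5, with a median of −0.64 and of 0.31 without APB5 replicate 3. The part of each cell type in the ISG levels was not tested.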

How the data were processed

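RNA was measured in 12 retinal libraries, 3 for each combination of antibody (IgG or APB5) and minocycline (none or Mino). The authors made stranded poly-A libraries, converted the reads with bcl2fastq 2.20 and used the DRAGEN RNA pipeline for alignment (version not given in the sources used here) to mm39, NCBI annotation. The table they deposited gives each gene's raw read count. It carries 3 repeated columns that were not read. The deposited tables of the authors' own comparisons (fold changes and P values) were not used. Library totals ranged from 52740545 to 59411044 counts, and 3 counts correspond to 0.0448 to 0.0587 CPM.

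Tools were edgeR 4.0.16, DESeq2 1.42.0 and limma 3.58.1 under R 4.3.3. In each comparison the libraries of the groups compared were filtered by filterByExpr, scaled by TMM and tested by edgeR's quasi-likelihood test (two-sided, prior count 0.125) with Benjamini-Hochberg adjustment over all genes tested. The interaction used all 12 libraries. CPM carry TMM factors, and class levels per library are medians of log2(CPM + 0.5). With 3 libraries against 3, an exact permutation test cannot go below P = 0.1.

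The members and lists were chosen with earlier results of these data known. Values in every library are given for type I and type II members with a mean of at least 1 CPM, for any other member called, for the 5 members with the smallest P in each comparison, for the receptors and called pathway genes, and for Pdgfrb as a check. Some other genes are not reported here. Socs3 was chosen after its values were seen. Positions are from GENCODE on GRCm39.

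Groups share replicate numbers. The main fits did not use these numbers, which were taken as pairs only in the replicate block. In APB5+Mino against APB5, deviations of same-numbered libraries correlated by 0.135, 0.290 and 0.175 across genes. In each other comparison at least 1 such correlation was under 0.1. The results were recomputed by DESeq2 and by voom with quality weights, with RLE or library size scaling, without the count filter or the fold threshold, with unadjusted P, with 12 libraries in 1 fit, with the replicate block, with Xist as a covariate, and leaving out single libraries.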

Additional observations from a re-analysis of the deposited data

Results flagged for a closer look

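Bst2 and Ifitm3 stood out because their difference between APB5 and IgG libraries went in opposite directions with and without minocycline. All 3 APB5 libraries lay above all IgG libraries, and all 3 APB5+Mino libraries lay below all IgG+Mino libraries. Of all genes, 7.79% had the first separation and 17.6% the second, and the share with both was not computed. Both genes were picked by this pattern, so the values below, from the same libraries, are no independent support. Xist was high in all IgG and near 0 in all IgG+Mino libraries, so sex also enters this interaction. The interaction log2 fold change was −2.757 for Bst2 (adjusted P = 0.165) and −2.535 for Ifitm3 (adjusted P = 0.159, both by the quasi-likelihood test of edgeR, Benjamini-Hochberg adjustment), so neither passed the test of the difference. Without APB5 replicate 3 the values were −1.49 for Bst2 (adjusted P = 0.0834) and −1.51 for Ifitm3 (adjusted P = 0.0885). DESeq2 called both (adjusted P = 0.0105 for Bst2 and 0.048 for Ifitm3), against 1.07% of all genes.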

How the results depend on the processing

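In this section an unadjusted P means a P of at most 0.05 with the fold threshold kept. Shares of all genes called are given above for DESeq2, voom, the Xist covariate and the fits without APB5 replicate 3. The counts of members under the other settings have no such share beside them and describe only how calls depended on the fit. Called members in APB5 against IgG were 0, but 1 by DESeq2, 24 with Xist as a covariate and 14 at an unadjusted P. In APB5+Mino against APB5 they were 2, but 0 with library size only or the replicate block, 17 by DESeq2, 11 by voom, 6 without the count filter, 18 with all 12 libraries in 1 fit, 21 with Xist as a covariate, 23 at an unadjusted P and 0 to 16 when 1 library was left out (0 without APB5 replicate 1 or any APB5+Mino library, 16 without APB5 replicate 2 and 9 without APB5 replicate 3). In APB5+Mino against IgG+Mino they were 0, but 1 by voom, 1 without a fold threshold and 1 at an unadjusted P. In the interaction they were 0, but 6 by DESeq2, 10 by voom, 11 with Xist as a covariate and 16 at an unadjusted P. The type II median minus the type I median was 0.13 in APB5 against IgG, but −0.095 by voom, −0.014 with the replicate block, −0.015 with Xist as a covariate and −0.18 to 0.28 with 1 library left out. It was 0.35 in APB5+Mino against APB5 (0.080 by voom, 0.23 to 0.53 with 1 library left out), 0.02 in IgG+Mino against IgG (−0.12 to 0.19 with 1 left out) and 0.37 in APB5+Mino against IgG+Mino (0.13 by voom, 0.53 with Xist as a covariate, 0.19 to 0.51 with 1 left out). The replicate block changed no other call. The causes were not tested. At 3 libraries per group, differences in members near the count floor, such as Mx1 and Oas2, cannot be resolved.

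None of the called members changed direction under the alternatives run, but 10 named log2 fold changes of members that did not pass the test did, and their direction is not settled. In APB5+Mino against APB5, the main values were −0.70 for Gbp5, −0.45 for Irgm2, −0.26 for Ifih1, −0.35 for Parp14 and −0.36 for Ddx58. With 1 library left out they ran from −0.98 to 0.092 for Gbp5, −0.65 to 0.078 for Irgm2, −0.41 to 0.10 for Ifih1, −0.65 to 0.28 for Parp14 and −0.51 to 0.013 for Ddx58, each highest without APB5 replicate 3. Under voom they were 0.046 for Gbp5, 0.059 for Irgm2, 0.034 for Ifih1 and 0.31 for Parp14. Gbp7, at −0.0026, was 0.0042 with RLE scaling, 0.0098 by DESeq2, 0.38 by voom, 0.015 without the count filter, 0.0013 with all 12 libraries in 1 fit, 0.051 with the replicate block, 0.017 with Xist as a covariate and −0.17 to 0.35 with 1 library left out. Eif2ak2, at 0.04, was −0.081 with library size only and −0.27 to 0.59 with 1 left out. In APB5 against IgG, Gbp7, at 0.30, was −0.047 to 0.47 with 1 left out, and Irf7, at −0.06, was 0.048 by voom, 0.13 with Xist as a covariate and −0.21 to 0.18 with 1 left out. In IgG+Mino against IgG, Irf8, at −0.40, was 0.46 with Xist as a covariate, a fit that cannot tell sex from minocycline there.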
